A study of Homo sapiens with 12 samples.

Results

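MANF, CDNF, CRELD1 and CRELD2 are 4 genes of 2 families whose proteins act in, or leave through, the endoplasmic reticulum (ER). They were taken by symbol from the first column of the deposited tables, and all 4 were among the 23292 symbols listed there. MANF and CRELD2 are each set beside the paralog of the same family, CDNF and CRELD1. RNA was sequenced from HEK293T cells, a line derived from human embryonic kidney, after 6 h with DMSO vehicle or with 10 µM of AA263, AA263yne or AA263-5, compounds studied as regulators of ER proteostasis. Each of these 4 groups had 3 samples, 12 in all, of which 9 had received a compound. All groups share this 1 unedited cell line, which the labels call HEK293T in one field and HEK293 in another. The samples of a group are not stated to come from separate cultures.

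For each symbol the deposited tables give a mean normalized value. This value is the authors' mean over all 12 samples of signal scaled by a size factor of each sample, which adjusts for sequencing depth. It carries no SD and no n here, and a mean over all groups does not separate vehicle from compound. The levels below are therefore those of the 12 samples together, with no comparison between treatments and no test. The values sum to 36.5 M over the 23269 symbols with a readable name, and the total of each single sample is not known here. The methods state a nominal number of reads per sample, without saying whether ends or pairs of reads were counted. Of 7 markers of the HEK293 lineage, 7 reached a mean normalized value of 10, from PAX2 at 27.7 to VIM at 18797. Of 6 markers of leukocytes, hepatocytes, endothelium, T cells, astrocytes and beta cells, 5 were listed and none reached 10, the highest being GFAP at 3.53.

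When misfolded proteins build up in the ER, 3 sensors start the unfolded protein response, and one of them, ATF6, is cut to release a transcription factor. This factor binds the ER stress response element (ERSE) together with the CCAAT-binding factor NF-Y, and genes for chaperones and folding enzymes are its best-known targets. MANF and CRELD2 are ER stress-inducible proteins that are held in the ER and can be secreted. MANF and CDNF also form a family of neurotrophic factors, known for protecting dopamine neurons. CRELD1 is an ER membrane protein with epidermal growth factor-like repeats and is known from heart valve and septum development, and CRELD2 is its soluble paralog.

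The DNA just upstream of each gene is shown first, because the members differ in the ERSE and its boxes there. Each line gives, 5′ to 3′ on the gene's own strand, the 250 bases before the transcript start in the RefSeq promoter table of GRCh38.p14. The windows lie at chr3:51385041-51385290 on the plus strand for MANF, chr10:14838038-14838287 on the minus strand for CDNF, chr3:9933584-9933833 on the plus strand for CRELD1, and chr22:49918384-49918633 on the plus strand for CRELD2. Capitals mark CCAAT, written ATTGG where it lies on the other strand, and in CRELD2 also the whole ERSE.
MANF: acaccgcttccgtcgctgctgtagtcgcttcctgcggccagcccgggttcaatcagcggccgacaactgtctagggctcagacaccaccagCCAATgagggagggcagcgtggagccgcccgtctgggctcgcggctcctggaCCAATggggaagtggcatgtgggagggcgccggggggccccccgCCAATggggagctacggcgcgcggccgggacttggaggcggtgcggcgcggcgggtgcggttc
CDNF: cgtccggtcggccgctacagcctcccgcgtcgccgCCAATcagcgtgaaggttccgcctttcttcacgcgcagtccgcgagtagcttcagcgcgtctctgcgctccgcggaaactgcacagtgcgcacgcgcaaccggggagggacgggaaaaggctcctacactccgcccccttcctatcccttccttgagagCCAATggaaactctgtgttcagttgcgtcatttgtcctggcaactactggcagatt
CRELD1: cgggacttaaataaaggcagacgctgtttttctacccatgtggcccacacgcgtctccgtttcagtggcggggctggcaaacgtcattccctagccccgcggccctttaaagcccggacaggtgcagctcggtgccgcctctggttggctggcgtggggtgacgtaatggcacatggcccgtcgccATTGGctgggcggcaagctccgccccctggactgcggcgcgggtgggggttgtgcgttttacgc
CRELD2: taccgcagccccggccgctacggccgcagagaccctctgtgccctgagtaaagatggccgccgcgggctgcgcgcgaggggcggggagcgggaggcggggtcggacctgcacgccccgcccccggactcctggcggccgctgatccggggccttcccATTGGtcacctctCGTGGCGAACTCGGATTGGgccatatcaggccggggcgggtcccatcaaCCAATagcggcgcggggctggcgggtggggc

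CRELD2 was the only member whose window held an exact ERSE, that is CCAAT, 9 bases of any kind and CCACG, searched on both strands from 250 bases before to 50 after the start. The match lay on the minus strand from -80 to -62 relative to the start, and reads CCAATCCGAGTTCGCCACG on that strand. Among 35116 promoter windows of the same length, 27 held an ERSE (0.0769%), at 25 of 27305 symbols. None of the members held ERSE-II (ATTGG, 1 base of any kind, CCACG), the core of the unfolded protein response element (TGACGTGG) or the C/EBP-ATF core (TGATGCAA). These letters occurred in 0.0541%, 0.729% and 0.866% of all windows. A match describes the letters in the window and is not a bound site, and no match says only that the letters are absent from it.

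The single boxes of the ERSE were more widely spread, as 34.6% of all windows held CCAAT and 38.1% held CCACG. MANF had 3 CCAAT boxes, beginning at -159, -107 and -63, and 1 CCACG at -142 on the other strand. CRELD2 likewise had 3 CCAAT boxes and 1 CCACG, of which 1 of each made up its ERSE. CRELD1 had 1 CCAAT box at -64 and 2 CCACG, at -98 and 32. CDNF had 2 CCAAT boxes, at -215 and -56, and was the only member with 0 CCACG. Both paralogs thus had fewer CCAAT boxes than MANF and CRELD2, and all 4 windows held at least 1.

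**Figure D1:**
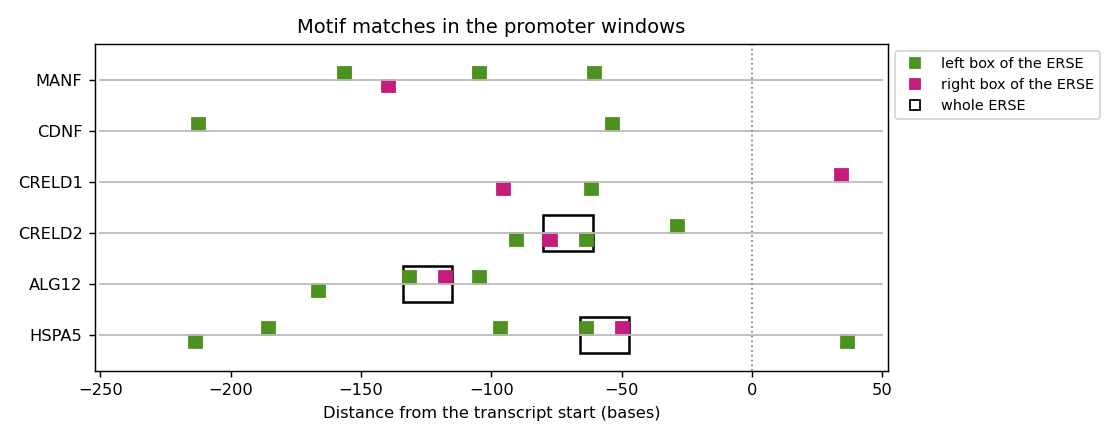
Matches in the promoter windows of the 4 members, of ALG12, which starts beside CRELD2, and of HSPA5, by distance from the transcript start in bases. Coloured blocks above each line lie on the gene's strand and blocks below it on the other, green for the left box of the ERSE (CCAAT) and pink for the right box (CCACG), and black frames are whole ERSE. CRELD2 has a frame at -80 to -62, and MANF, CDNF and CRELD1 have none.

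The same ERSE lies in the window of ALG12, a mannosyltransferase gene that points away from CRELD2 and whose start is 196 bases from that of CRELD2. Counted from the ALG12 start, it lies on the plus strand from -134 to -116. The mean normalized value per kilobase (kb) of transcript was 2336 for CRELD2 and 326 for ALG12, a ratio of 7.16, or 1.92 without division by length. In HSPA5, which encodes the chaperone BiP, the ERSE lay from -66 to -48. Of the 25 symbols with an ERSE, 22 were in the deposited tables and 18 reached a value of 10. In the 5 lists of ER and unfolded protein response genes described below, 7 of the 25 were found, CALR, CRELD2, FICD, HSP90B1, HSPA5, PDIA6 and XBP1. The other 18 were in none of them, among them ALG12, CANX, ERO1B and SERP1 as well as NLRP4, TRIM5 and ZNF17. These lists do not hold every ER gene, and no theme was tested. Of the 18 genes in the study's ATF6 target set, 4 had one, CALR, CRELD2, HSPA5 and PDIA6, while MANF, also in the set, had none.

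MANF had the highest level of the members, with a mean normalized value of 7967. It was higher than 95.0% of the 15618 symbols with a value of at least 10. CRELD2 followed at 3336, above 85.4% of these symbols. The median of these symbols was 571, and MANF and CRELD2 lay above it.

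CRELD1 had a mean normalized value of 452 and lay above 46.0% of the symbols. Among the 14035 of these symbols with a known transcript length it lay above 41.0%, and per kb of transcript above 50.4%, so its side of the median depended on the scale. Its value is also uncertain because 96.0% of its 50-base windows also occur in overlapping genes. CDNF was lowest, at 19.1, above 7.52%, and its values over the 12 samples sum to 229. The order was thus MANF, CRELD2, CRELD1 and CDNF. Whether neighbours in this order differ by more than the spread over samples was not tested, since no value per sample was used.

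**Figure D2:**
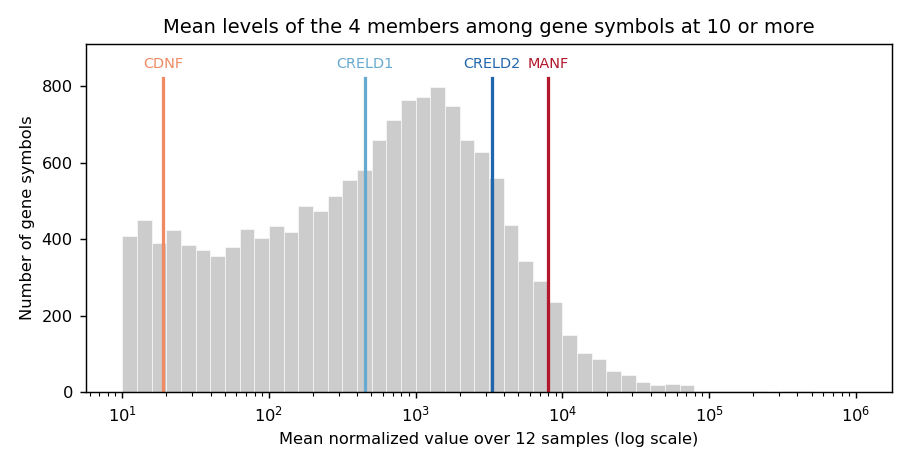
Number of gene symbols (vertical axis) by mean normalized value over the 12 samples (horizontal axis, log scale), for the 15618 symbols with a value of at least 10. Vertical lines mark CDNF at 19.1, CRELD1 at 452, CRELD2 at 3336 and MANF at 7967.

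The group sizes still bound the levels in single groups. Since each group is 3 of the 12 samples and no value is negative, the mean of any group can be at most 4 times the mean over all. In no group could the mean of CDNF therefore exceed 76.4, which is 0.959% of the 12-sample mean of MANF. For CRELD1 the limit is 1810, or 54.3% of the 12-sample mean of CRELD2. The limits for CRELD2 and MANF are 13343 and 31866. These limits hold whatever the compounds did, and say nothing of which group was higher.

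Longer transcripts yield more reads, so genes were compared per kb of their MANE Select transcript, the single reference transcript agreed on by the annotation projects. The methods state that reads per kb and library size (RPKM) entered the authors' fit. If the deposited values are of that kind, a level per kb is divided by length a second time. In that case the values without division are those to read. The sum of all values, 36.5 M, is however of the size of a read library. The transcripts of MANF, CDNF, CRELD1 and CRELD2 are 909, 1390, 2196 and 1428 bases long. MANF reached a mean normalized value of 8764 per kb and CDNF 13.7 per kb, a ratio of 638, or 417 without division. CRELD2 reached 2336 per kb and CRELD1 206 per kb, a ratio of 11.3, or 7.37 without division. The gap within the MANF family was thus much wider than that within the CRELD family, and in both the stress-inducible gene was the higher. Between families, MANF was 3.75 times as high per kb as CRELD2, and CRELD1 15.0 times as high as CDNF. Without division these ratios were 2.39 and 23.7.

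In 10 pairs of an ER or unfolded protein response gene and its paralog, MANF over CDNF was the second highest ratio per kb and CRELD2 over CRELD1 the sixth. Without division by length SEL1L over SEL1L2 stood at 1637, above MANF over CDNF at 417, while CRELD2 over CRELD1 was again sixth. The highest ratio was 5923 for CALR, a lectin chaperone, over its paralog CALR3 at 4.01 per kb. Per kb, SEL1L over SEL1L2 had 493, the ratio next below that of MANF. The paralogs of the 3 highest ratios had low mean normalized values, 5.06 for CALR3, 19.1 for CDNF and 0.618 for SEL1L2, so the order of these pairs rests on small denominators. SEL1L belongs to the machinery that removes misfolded proteins from the ER. The ratio per kb of CRELD2 over CRELD1 lay between 12.6 for the translocon subunits SEC61A1 over SEC61A2 and 5.60 for SDF2L1 over SDF2. The lowest was 0.306 for ATF6 over ATF6B, or 0.871 without division, the only pair in which the second gene was higher.

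**Figure D3:**
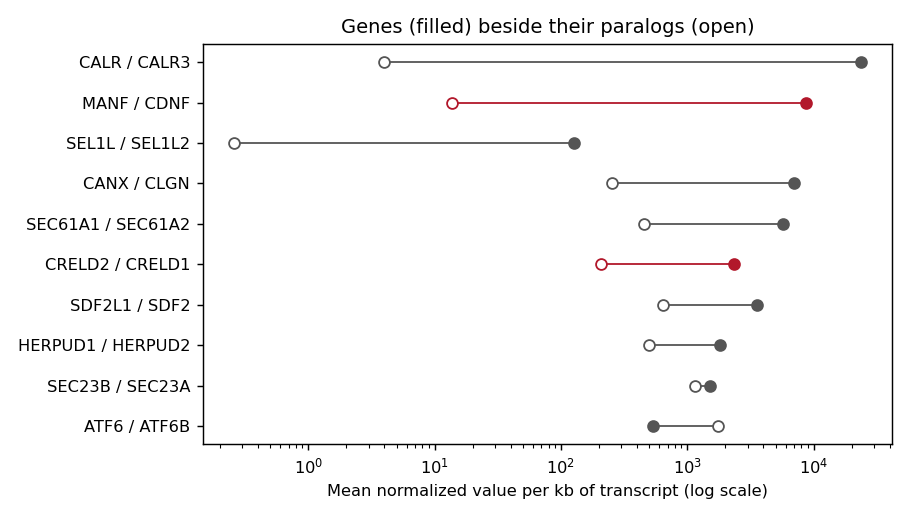
Mean normalized value per kb of transcript (horizontal axis, log scale) of 10 genes (filled circles) and their paralogs (open circles), ordered by ratio, with member pairs in red. MANF and CDNF stand 638-fold apart and CRELD2 and CRELD1 11.3-fold.

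Among genes of the same pathway, MANF lay above most and CRELD2 above a share that differed between lists. Positions per kb are given first and those without division by length after them. The study's ATF6 target set of 18 genes holds both and had a median of 1150 per kb, from SLFN11 at 0.892 to CALR at 23754. MANF lay above 14 of the 17 other genes of the set, and CRELD2 above 10 of 17. Without division by length these counts were 12 and 9. In the study's set of 18 target genes of IRE1 and XBP1s, another branch of the response, the median was 556 per kb. MANF lay above all 18 of them, up to SEC61A1 at 5703 per kb, and CRELD2 above 16. Without division, MANF lay above 15, with SEC61A1, SSR1 and STT3A higher, and CRELD2 above 11.

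Against 18 chaperones and folding enzymes of the ER lumen, with a median of 2631 per kb, MANF lay above 13 and CRELD2 above 8, or 11 and 7 without division. CRELD1 lay above 2 of them, or 1 without division, and CDNF above none on either scale, the lowest of these enzymes being the co-chaperone gene DNAJB9 at 114 per kb. HSPA5 was 2.12 times as high per kb as MANF and 7.97 times as high as CRELD2, or 9.16 and 21.9 times without division. The 3 KDEL receptors, which return escaped ER proteins, ranged from 148 per kb for KDELR3 to 4464 for KDELR1, and MANF lay above all 3. Of 11 sensors and factors of the response, MANF lay above 10 per kb, the exception being ATF4 at 20130, and CRELD2 above 9. Without division XBP1 was also higher than MANF, which lay above 9, and CRELD2 lay above 6. ERN1, which encodes the sensor IRE1, was the lowest of the 11 at 35.6 per kb and still above CDNF.

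MANF stood above all other neurotrophic factors listed. Of 9 other secreted neurotrophic factors, 1 reached a mean normalized value of 10, and their median was 1.98 per kb. This one was NRTN, which encodes neurturin, at 36.5 per kb, 2.66 times the level of CDNF, or 2.92 times without division. CDNF lay above the other 8, among them GDNF at 0.950 and BDNF at 0.964 per kb, with NTF3 the lowest at 0.895. Of 10 receptors of such factors, 9 were listed and 5 reached a mean normalized value of 10. The highest was NPTN, which encodes neuroplastin, at 1397 per kb, and the lowest NTRK3 at 0.0673. RET, the signalling receptor of the GDNF family, had 19.2 per kb.

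**Figure D4:**
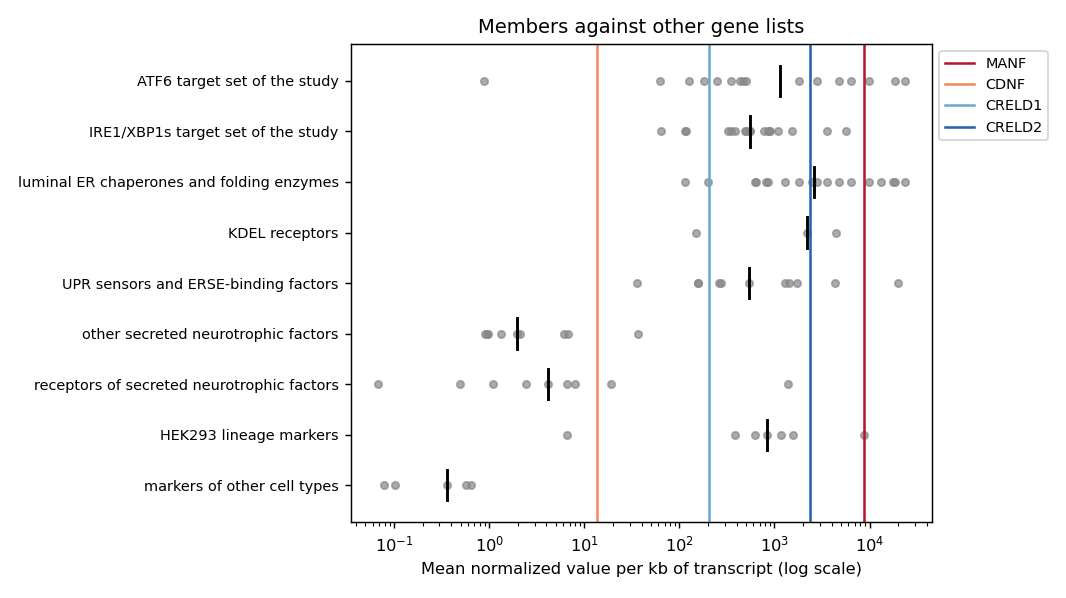
Mean normalized value per kb of transcript (horizontal axis, log scale) of the genes of 9 lists (grey points, 1 per gene; black bars, list medians, members included) against MANF, CDNF, CRELD1 and CRELD2 (coloured lines). MANF at 8764 lies right of every KDEL receptor and, on this scale, of every IRE1/XBP1s target, and CDNF at 13.7 lies left of every ER chaperone.

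The genes differ in size as well as level. On GRCh38 in the GENCODE 44 annotation, MANF lies on the plus strand at chr3:51385291-51389397 and CDNF on the minus strand at chr10:14819245-14838575. CRELD1 lies on the plus strand at chr3:9933793-9945413, and CRELD2 on the plus strand at chr22:49918167-49927540. The reference transcripts of MANF and CDNF have 4 exons each, those of CRELD1 and CRELD2 have 11 and 10. Introns take up 3198 bases in MANF and 17403 in CDNF, although both encode small proteins of 182 and 187 residues. The last exon holds 493 bases in MANF against 914 in CDNF, and 283 in CRELD2 against 1042 in CRELD1. In each family the gene with the higher level thus had the shorter transcript, and MANF and CRELD2 also the larger coding share, 60.4% and 74.4% against 40.6% and 57.5%.

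Runs of consecutive inner exons had equal lengths within each family. Exons 2 and 3 of MANF and of CDNF have 128 and 142 bases, 270 in all. Exons 3 to 9 of CRELD1 match exons 2 to 8 of CRELD2 in length, with 739 bases over 7 consecutive exons. The first and last exons differed in both families, as did exon 10 of CRELD1, with 135 bases, and exon 9 of CRELD2, with 141. Exon 2 of CRELD1, with 193 bases, had no equal in CRELD2.

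**Figure D5:**
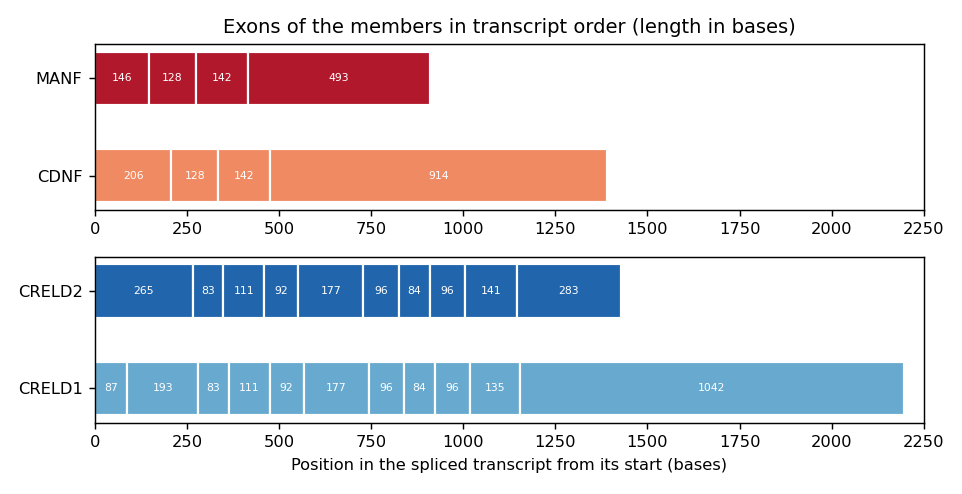
Exons of the reference transcripts of MANF, CDNF, CRELD2 and CRELD1 in order, by position in the spliced transcript in bases, with each block's length written in it. Exons 2 and 3 match between MANF and CDNF, and a run of 7 exons matches between CRELD1 and CRELD2.

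The proteins, translated from the annotated coding sequences, show how far the members of a family differ. MANF and CDNF shared 107 identical residues in 192 alignment columns (55.7%). CRELD1, with 420 residues, and CRELD2, with 353, shared 170 in 429 columns (39.6%). Cysteines, which can form disulfide bonds in the ER, numbered 8 in MANF, 10 in CDNF, 39 in CRELD1 and 38 in CRELD2. They were counted over the whole translated sequence, including any part that is removed from the finished protein. The counts are therefore not numbers of cysteines that form disulfide bonds. Pairs of cysteines with 2 residues between them, the spacing of the active site of thioredoxin-like enzymes, occurred 2 times in both MANF and CDNF and 9 times in both CRELD1 and CRELD2. In a search of 19005 human proteins, MANF and CDNF matched only each other, with a bit score of 208. CRELD1 and CRELD2 were each other's best match, with bit scores of 325 and 310, and each matched 32 other genes in all. The second best were HMCN1 for CRELD1, at 75.5, and FBLN5 for CRELD2, at 63.9.

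Similar proteins could blur levels if reads were counted for the wrong paralog, but the transcripts differ enough to tell them apart. The longest stretch of identical bases was 12 between MANF and CDNF and 12 between CRELD1 and CRELD2, shorter than a read of any usual length. Of all 50-base windows in the transcripts, 0 of 860 in MANF, 0 of 1341 in CDNF and 0 of 1379 in CRELD2 occurred in transcripts of another annotated gene. CRELD1 was different, as 2061 of its 2147 windows (96.0%) occurred in another gene. An annotated readthrough gene on the same strand held 2040 of them, and PRRT3, which overlaps CRELD1 on the opposite strand, held 996. For the readthrough gene no value was found under its annotated name. The library protocol marks strand, but whether the counting used it is not given in the sources used here. The level of CRELD1 is therefore uncertain, and so is its ratio to CRELD2.

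The nearest protein-coding genes beside or overlapping the members had unlike levels. CDNF starts 269 bases from HSPA14, a chaperone gene on the opposite strand, which had 2701 per kb, 197 times the level of CDNF, or 249 times without division. MANF lies 1093 bases after DOCK3, at 36.5 per kb, and 1888 bases before RBM15B, at 690, both on its own strand. CRELD1 lies 163 bases after IL17RC, a receptor gene on its strand, at 78.4 per kb, 0.380 times the level of CRELD1, or 0.417 times without division, and PRRT3 had 79.9 per kb. On the far side of CRELD1, EMC3, a subunit of an ER membrane insertase, had 738 per kb. Beyond ALG12, the neighbours of CRELD2 were ZBED4 at 311 per kb and PIM3 at 783. The further neighbours of CDNF were FAM107B at 56.2 per kb and SUV39H2 at 707.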

How the data were processed

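RNA of 12 HEK293T samples, 3 per group, was measured by sequencing of mRNA libraries. The authors aligned reads with DNAstar SeqManPro to GRCh38.p7, quantified them with ArrayStar and QSeq, and ran DESeq2 (1.40.1 in the submitters' processing notes, which name GRCh38 and GRCh37). The deposited signal is the authors' mean over all samples of values scaled by size factors, and is the same in the 3 tables. Methods name RPKM as input, while the sum of the values is of the size of a read library. The other columns hold the authors' own comparisons of each compound with vehicle, as fold changes with standard errors, statistics and p-values, and were not used, so no treatment effect is given and only 1 value per gene remains. Of 23292 symbols, 23 had become dates or numbers and were left out. 89.9% of the symbols with a mean of at least 10 matched GENCODE 44 by symbol, or by a unique older symbol in the RefSeq table of GRCh38.p14.

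Levels were divided by MANE Select transcript length, or by that of the longest transcript where none is tagged. Proteins were aligned globally with BLOSUM62 (gap open 10, extension 0.5) in biopython 1.88 and searched with blastp 2.17.0 at an e-value of at most 1e-5. Motifs were matched on both strands in windows of 300 bases. The motif search, the percentiles, the union of exon lengths and the identity from global alignment were tested on simulated data. Named genes are the members, the highest, lowest and selected genes of 9 lists, the 10 paralog pairs, nearest neighbours and best protein matches; RET, GDNF, BDNF, the genes named for their ERSE and those above MANF only without division by length were selected after their values were seen. The members and lists were chosen with earlier results of these data known. Other lengths, filters, alignments and 1 mismatch in motifs were tried as alternatives.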

Additional observations from a re-analysis of the deposited data

How the results depend on the processing

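The order of the members and the direction within both pairs held under every length tried, but the ratios moved. MANF over CDNF was 638 per kb of reference transcript, 332 with the union of annotated exons, 429 with coding length and 417 with no division by length. CRELD2 over CRELD1 was 11.3, and 13.2, 8.77 and 7.37 under the same settings. Other positions and ratios, for which this last setting was added after the data were seen, changed too, and besides those printed with their values, PRRT3 over CRELD1 went from 0.388 to 0.667, MANF over CRELD1 from 42.5 to 17.6, and CRELD2 lay above 1 of 3 KDEL receptors in place of 2. Among all listed symbols in place of those with a mean of at least 10, the percentiles of MANF, CRELD2, CRELD1 and CDNF were 96.6, 90.2, 63.8 and 37.9. Among the 14035 symbols with a transcript length, another alternative added after the data were seen, they were 94.6, 84.0, 41.0 and 5.29, and among these symbols per kb of transcript 98.2, 91.9, 50.4 and 11.5. Local in place of global alignment gave identities of 56.6% for MANF and CDNF and 47.6% for CRELD1 and CRELD2. With 1 mismatch allowed, 3 members in place of 1 had an ERSE or ERSE-II, MANF at -113, CRELD1 at -78 and CRELD2, as did 2.70% of all windows, and CDNF had none. These values follow from the settings themselves.

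No paired analysis was possible because the tables hold no values per sample, and leaving out a replicate could not be run for the same reason. The methods state only a nominal depth and the totals of single samples are not known, so no counting interval is given, and how many reads lie behind the low value of CDNF is not known.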
